A study of Mus musculus with 11 samples.

Results

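The mitochondrial ribosomal protein genes encode the protein parts of the ribosome that works inside mitochondria. They were taken as every gene name made of Mrpl or Mrps, a number and at most 1 lower-case letter, without use of any measured value. This gave 76 of the 42375 named genes, 47 with an Mrpl name and 29 with an Mrps name. All 76 passed the filter on low counts, as did 15024 genes in all. The gene Mrpl33 was not analysed here.

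RNA was sequenced from bone marrow derived macrophages (BMDM) of C57BL/6 mice in an M0 or an M1 state, 16 hours after the cells received 1 of 2 gapmers. Gapmers are antisense oligonucleotides, and the RNA they pair with is cut by an enzyme of the cell. The KD gapmer was directed at MERRICAL, a long noncoding RNA, and the other was labelled NS. Each of the 4 groups thus combines C57BL/6 cells, 1 state and 1 gapmer: M1 KD has 2 libraries, and M0 NS, M0 KD and M1 NS have 3 each. All 4 groups received a gapmer, so no group shows untreated cells. Neither the stimulus behind the M1 label nor the gapmer sequences were stated in the labels. The labels number the libraries 1, 2 and 4 in 3 groups but 5 and 6 in M1 KD, so that anything tied to the numbers 5 and 6 cannot be told apart from the gapmer in M1 cells. The labels do not say whether replicates are separate cultures or animals, so the p-values rest on a spread between libraries that may be technical.

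Mitochondrial ribosomes make a small set of proteins, all of them membrane parts of the respiratory chain and the ATP synthase, from messenger RNAs of the mitochondrial genome. Their RNA components are encoded there too, but every ribosomal protein is encoded in the nucleus, made in the cytosol and imported. By the naming of ribosomal proteins, 45 members are the counterpart of a bacterial ribosomal protein and 30 are classed as specific to mitochondria. In macrophages, activation to an M1 state is known for a turn from respiration toward glycolysis. By the known structures, 49 members belong to the large subunit and 26 to the small one, among them Mrps30 and Mrps18a, which carry an S name but sit in the large subunit. Mrps36, also known as a subunit of the oxoglutarate dehydrogenase complex, was assigned to neither.

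Total counts ran from 30040632 to 43250392 per library. Macrophage markers were abundant in every group, with 9 genes summing to between 13843 and 27195 CPM (TMM-scaled CPM, a count relative to the scaled size of its library). The sum was 25831 to 27195 CPM in M0 NS and 19456 to 21274 in M0 KD. It was lower in M1 NS, at 13843 to 16026, and in M1 KD, at 15028 to 18156. From M0 NS to M1 NS, 5 of the 9 were called higher and 3 lower. The 8 M1 markers, such as Nos2 and Il12b, summed to 144 to 196 CPM in the M0 libraries and to 12643 to 19363 in the M1 libraries, and all 8 rose in M1 NS over M0 NS. The 4 T cell markers summed to at most 0.771 CPM, the 4 B cell markers to at most 5.52 and the 3 dendritic cell markers to at most 7.40. The 4 fibroblast markers ran from 1.98 to 25.7 CPM in M0 NS when summed, and 25.7 was their highest sum. The target RNA itself was not analysed here, since none of the named genes is called MERRICAL. In bulk RNA, fewer cells of a type and less RNA per cell cannot be told apart.

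The members differed widely in level. Between genes, levels were compared as RPKM, the CPM per 1000 bases of the principal transcript. The median member stood at 14.0 RPKM over the 11 libraries. Highest were Mrpl52, a large subunit protein without a bacterial counterpart, at 70.5 RPKM, and Mrpl27, a homolog of the bacterial protein at the peptidyl transferase centre, at 65.6 RPKM. Lowest were Mrps35 at 2.06 RPKM and Mrpl53 at 1.31 RPKM, the latter with only 0.489 to 1.35 CPM in any library. The order depends on the length used, which was chosen after values were seen. With the union of all annotated exons the median was 8.43 RPKM, Mrpl27 was highest at 50.3 RPKM, Mrpl52 was 6th at 26.6 RPKM, and Mrps35 was lowest at 0.992 RPKM with Mrpl53 next at 1.15 RPKM. Exons of 27 members overlap exons of a gene on the other strand, by up to 4590 bases for Mrps25 and Nr2c2. Whether counting used the strand was not stated, so reads in such an overlap cannot be assigned with certainty. Of the members described most, Mrpl13 overlaps Mtbp by 330 bases, Mrpl14 overlaps Tmem63b by 106, Mrpl49 overlaps Syvn1 by 91, Mrpl27 overlaps Eme1 by 75, Mrpl36 overlaps Ndufs6 by 30 and Mrps18b overlaps Gm16279 by 638. Mrps30 overlaps B430218F22Rik by 623, Mrpl43 overlaps Twnk by 507 and Mrpl10 overlaps Gm11574 by 240. Mrps36 and Mrpl23 are among 3 members with pseudogenes of the same name, and their reads may be shared with these copies.

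The members lie on 17 chromosomes, 10 of them on chromosome 11 and 8 on chromosome 17. On GRCm38 by GENCODE M21, Mrpl14 lies at chr17:45686322-45698495 and Mrpl28 at chr17:26123500-26126613, Mrpl27 at chr11:94653767-94660089, Mrpl52 at chr14:54426909-54429756 and Mrpl36 at chr13:73328513-73332178, all on the plus strand. Mrpl49 lies at chr19:6053622-6057785 and Mrpl13 at chr15:55534094-55557748 on the minus strand.

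Within a group the libraries lay close together for the median member, though not for every member. The median member varied by a coefficient of variation of 7.90% in M0 NS, 6.56% in M0 KD, 12.8% in M1 NS and 9.89% in M1 KD. The most variable member reached 40.9% in M0 NS, 20.0% in M0 KD, 27.4% in M1 NS and 35.9% in M1 KD. Summed over the 76 members, the CPM was 1408, 1436 and 1588 in the M0 NS libraries, and the M0 KD libraries had 1294, 1362 and 1388. In M1 NS the sum was 1660, 1887 and 1731, and in M1 KD it was 2006 and 1899. All 5 M1 libraries thus lay above all 6 M0 libraries, and the 3 M0 KD libraries below the 3 of M0 NS. This order rests on the TMM factors, which were 1.10 to 1.19 in M0 and 0.825 to 0.902 in M1 libraries. As a plain share of counts the members made up 0.166% ± 0.0153 of M0 NS, 0.157% ± 0.00769 of M0 KD and 0.151% ± 0.0109 of M1 NS libraries (SD, n = 3 each), and 0.163% ± 0.00871 in M1 KD (SD, n = 2). On that scale the groups overlapped. With TMM scaling again, the highest group mean fell in M1 KD for 37 members, in M1 NS for 21, in M0 NS for 15 and in M0 KD for 3. The lowest fell in M0 KD for 38 members, and 25 members had both the highest mean in M1 KD and the lowest in M0 KD. These counts rest on the TMM factors as well, and the same counts over all genes were not made.

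**Figure D1:**
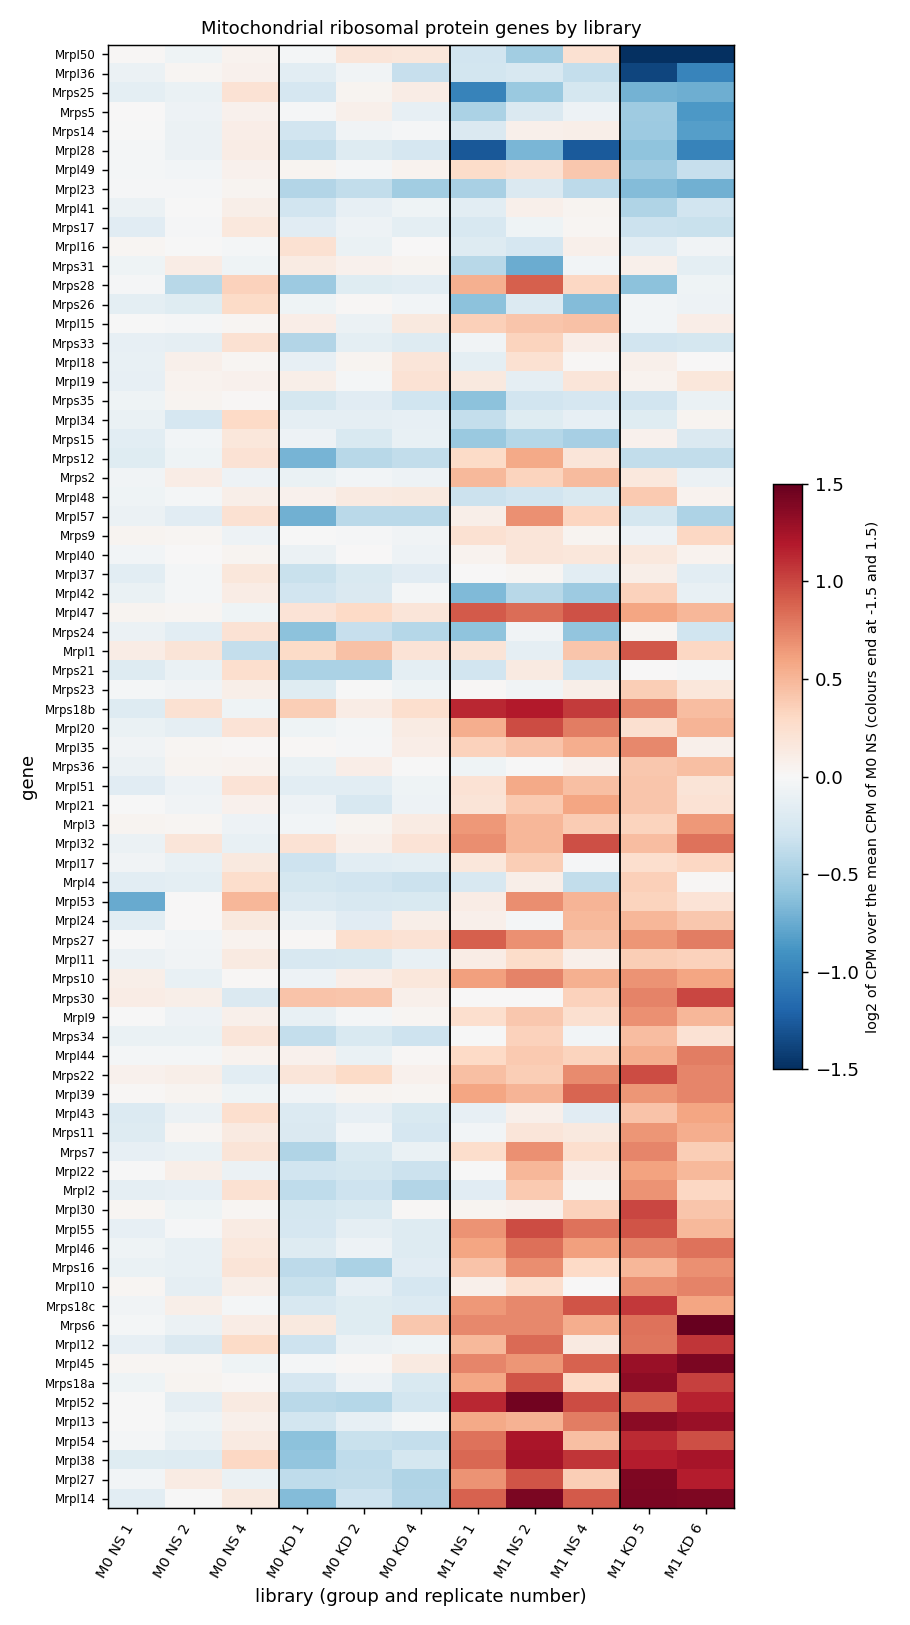
Each row is 1 of the 76 members and each column 1 of the 11 libraries, grouped as M0 NS, M0 KD, M1 NS and M1 KD. Colour gives the log2 of the CPM over the mean CPM of M0 NS, with rows ordered by the log2 fold change of M1 KD against M0 KD. Members at the bottom, such as Mrpl14 and Mrpl27, were high in all 5 M1 libraries, and Mrpl50 at the top was low in the 2 M1 KD libraries. The colours use TMM scaling; with library size as the only scaling fewer members were higher in M1.

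The sequences between a few members and their nearest neighbours are shown first, because many members start close to another gene on the opposite strand and such pairs are taken up again below. Of the 76 members, 32 had the start of a protein-coding gene on the opposite strand within 1000 bases. The 4 stretches given here were chosen after the values were seen: 2 pairs that went opposite ways in M1 cells with the gapmer (Mrpl50 and Mrpl49), 1 that rose together between M0 and M1 (Mrpl32) and 1 of a member of the S18 family (Mrps18c). Each is written 5′ to 3′ on the member's strand from RefSeq on GRCm38.p6, and holds only bases between the starts of both genes. Capitals mark letters of the motifs searched, CCGGAAG (the ETS family, such as GABPA) and CCAAT, on either strand. Mrpl50 and Zfp189 are parted by 82 bases at chr4:49521094-49521175, minus strand. Mrpl49 and Fau are parted by 58 bases at chr19:6057786-6057843, minus strand. Mrpl32 and Psma2 are parted by 74 bases at chr13:14613166-14613239, minus strand. Mrps18c and Helq are parted by 26 bases at chr5:100798601-100798626, plus strand.
Mrpl50: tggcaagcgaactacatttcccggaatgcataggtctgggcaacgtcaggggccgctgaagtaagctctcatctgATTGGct
Mrpl49: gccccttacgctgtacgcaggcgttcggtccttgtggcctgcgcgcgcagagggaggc
Mrpl32: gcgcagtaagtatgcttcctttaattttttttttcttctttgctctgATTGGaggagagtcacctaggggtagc
Mrps18c: gaCTTCCGGcccgggaagcgcgggaa
The stretch of Mrpl49 holds none of the motifs searched, which says only that these letters are absent from this window.

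Promoters from RefSeq, 250 bases before to 50 bases after a gene's start, were found for 67 of the 76 members and 10404 of the genes tested. Letters were searched on both strands. The ETS letters CCGGAAG stood in 22 of 67 member promoters, 32.8%, against 17.7% of all promoters. The YY1 letters AAGATGGCG stood in 8, 11.9% against 3.04%, and the palindrome bound by NRF1 in 3, 4.48% against 2.05%. The end of the ETS letters is the start of the YY1 letters, so that both can be met at 1 place. The SP1 letters GGGCGG stood in 34, 50.7% against 62.4%, and CCAAT in 26, 38.8% against 38.6%. These motifs were chosen with the members' values known, and a match is a description of letters.

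The first comparison set M1 NS against M0 NS and asks how the members differ between the states. Of the 76 members 33 rose and 7 fell with TMM scaling, but 9 rose and 25 fell with library size as the only scaling, where 15.6% of all genes were called higher and 42.9% lower. The test was edgeR's quasi-likelihood test with Benjamini-Hochberg adjustment over all 15024 genes at an adjusted p below 0.05. The 33 make up 43.4% of the members, where 26.9% of all genes tested were called higher, and the 7 make up 9.21%, where 28.6% were called lower. In all, 52.6% of members and 55.5% of all genes were called. The median log2 fold change was 0.19 for members and -0.04 for all genes tested. Library size as the only scaling moved these to -0.19 and -0.42, and upper-quartile factors to 0.07 and -0.16. The distance between the members' median and that of all genes was 0.23 with each of the 4 scalings. Of the large subunit members 23 of 49 rose and 3 fell, and of the small subunit members 10 of 26 rose and 4 fell; a difference between the subunits was not tested. Of the 45 members with a bacterial homolog 20 rose and 3 fell, and of the 30 without one 13 rose and 4 fell. Of the 27 members overlapped by exons on the other strand 14 rose and 2 fell. Of the other 49 members 19 rose and 5 fell, and this difference was not tested. The CPM ranges of the groups were apart for 44 members, 34 higher and 10 lower, and for 61.4% of all genes, 28.6% higher and 32.8% lower.

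Mrpl52 rose most. It was at 19.8, 18.1 and 21.8 CPM in M0 NS and at 43.5, 54.4 and 39.1 CPM in M1 NS, so the groups lay far apart (log2 change 1.20 with an SE of 0.14, edgeR's adjusted p = 1.88e-05). Mrpl14, which lies at the face where the subunits meet and binds the assembly factor MALSU1, had 20.3, 22.7 and 25.1 CPM in M0 NS and 42.0, 60.2 and 42.8 CPM in M1 NS (log2 change 1.09 with an SE of 0.16, edgeR's adjusted p = 8.13e-05). Mrpl38, a mitochondria-specific protein of the central protuberance, went from 14.2 ± 2.96 CPM to 29.7 ± 3.96 CPM, each with an SD over n = 3, a log2 change of 1.07. Other large subunit members that rose were Mrpl47 by 0.90, Mrpl54 by 0.86, Mrpl55 by 0.82 and Mrpl45, which anchors the ribosome at the inner membrane near the exit of the nascent chain, by 0.76 on the log2 scale. Mrpl27 rose by 0.68 (adjusted p = 0.00131 with edgeR), a call that ended with library size as the only scaling, where its log2 fold change was 0.29. Mrpl39 rose by 0.67, a call that ended under the same scaling. In the same comparison 7 of 8 neutrophil markers fell (median log2 fold change -3.30), from 1227 to 2182 CPM summed in M0 NS to 235 to 307 in M1 NS. Of 14 cell cycle genes 12 fell (median -2.34), from 577 to 755 CPM to 308 to 481 CPM. Their part in the members' values was not tested. Calls of 9 of the 33 higher members held in every alternative tried, and these were Mrpl14, Mrpl38, Mrpl45, Mrpl47, Mrpl52, Mrpl54, Mrpl55, Mrps18b and Mrps18c.

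Mrpl28, the homolog of a bacterial large subunit protein, fell most. It was at 33.3, 32.2 and 36.8 CPM in M0 NS and at 14.1, 21.2 and 14.2 CPM in M1 NS (log2 change -1.05 with an SE of 0.17, edgeR's adjusted p = 2.05e-04). All 3 M1 libraries lay below all 3 M0 libraries, and the call held in every alternative tried. The large subunit member Mrpl42 fell by 0.54 and the small subunit member Mrps15 by 0.50 on the log2 scale, also in every alternative tried. Mrps25 fell by 0.58, Mrps26 by 0.48, Mrps35 by 0.38 and Mrpl23, a protein at the exit of the tunnel for the nascent chain, by 0.36. The call of Mrps35 ended in 10 alternatives, among them RLE factors and leaving out M0 NS replicate 1, 2 or 4 or M1 NS replicate 1. That of Mrps26 ended in 6, among them without M0 NS replicate 4 or M1 NS replicate 1 or 4, and that of Mrpl23 without M1 NS replicate 1 or a filter. Mrpl48 stood at a log2 fold change of -0.28 and did not pass the test (adjusted p = 0.0631 with edgeR).

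M1 KD was set against M0 KD in the same way, 2 libraries against 3 that share none with the comparison just given. Of the 76 members 39 rose and 7 fell with TMM scaling, and 15 rose and 22 fell with library size as the only scaling, where 15.8% of all genes were called higher and 47.1% lower. The 39 make up 51.3% of members, where 26.9% of all genes were called higher, and the 7 make up 9.21%, where 31.4% were called lower; 58.3% of all genes were called. The median log2 fold change was 0.43 for members and -0.11 for all genes tested, and with library size only -0.06 and -0.59. The distance between both medians was 0.54 with each of the 4 scalings, and 0.35 with the trend in transcript length and GC content removed. Of the large subunit members 28 of 49 rose and 4 fell, and of the small subunit members 10 of 26 rose and 3 fell. Of the 27 members overlapped by exons on the other strand 17 rose and 3 fell, and of the other 49 members 22 rose and 4 fell. The ranges were apart for 57 members, 47 higher and 10 lower, and for 74.9% of all genes, 34.4% higher and 40.6% lower.

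Mrpl14 was at 14.5, 18.3 and 16.8 CPM in M0 KD and at 60.1 ± 0.144 CPM (SD, n = 2) in M1 KD (log2 change 1.86 with an SE of 0.17, edgeR's adjusted p = 2.30e-06). Mrpl27 was at 27.8, 28.2 and 26.7 CPM in M0 KD and at 95.9 and 82.6 CPM in M1 KD (log2 change 1.70 with an SE of 0.15, edgeR's adjusted p = 2.18e-06). For both genes the lowest M1 KD library was over the highest M0 KD library by a wide margin. Mrpl38 rose by 1.61, Mrpl13 by 1.46, Mrpl52 by 1.40, Mrps18a by 1.38 and Mrpl45 by 1.31 on the log2 scale, and each of these calls held in every alternative tried, as did those of Mrpl14 and Mrpl27. Here too 7 of 8 neutrophil markers and 12 of 14 cell cycle genes fell (medians -3.49 and -2.53). The remaining neutrophil marker was called higher, at a log2 fold change of 1.61. The part of these lists in the members' values was not tested. Mrpl50, a mitochondria-specific large subunit protein, fell from 18.1, 20.8 and 20.8 CPM to 3.81 and 5.60 CPM (log2 change -2.09 with an SE of 0.23, edgeR's adjusted p = 1.19e-05). Mrpl36 fell by 0.99, Mrps25 by 0.70, Mrps5 by 0.66, Mrps14 by 0.56, Mrpl28 by 0.52 and Mrpl49 by 0.47. With the length and GC trend removed the calls of Mrps25, Mrps14 and Mrps5 ended, at -0.080, -0.0069 and -0.24. That of Mrps25 also ended without M1 KD replicate 5 or 6, that of Mrps14 without replicate 6 and that of Mrpl49 without replicate 5. The call of Mrpl28 ended with RLE factors, with DESeq2 and without M0 KD replicate 2 or 4 or M1 KD replicate 6.

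Called higher in M1 under both gapmers were 25 members, which are 75.8% of the 33 under NS and 64.1% of the 39 under KD. Over all genes tested 2623 were called higher in both, 64.9% of 4044 and 64.9% of 4040. Called lower in both were Mrpl28 and Mrps25, 28.6% of the 7 in either comparison, against 65.8% and 59.96% over all genes. Neither overlap is firm, since the KD calls of both genes ended in the alternatives just named and the NS call of Mrps25 ended without M0 NS replicate 4, without M1 NS replicate 1 and with the length and GC trend removed. Mrpl49 was the 1 member called in opposite directions, higher under NS and lower under KD. Its NS call ended in 8 alternatives, and its log2 fold change was -0.085 with library size as the only scaling. Across the 76 genes, which are not independent replicates, the log2 fold changes of both comparisons had a Pearson correlation of 0.65, beside 0.77 over all genes tested.

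**Figure D2:**
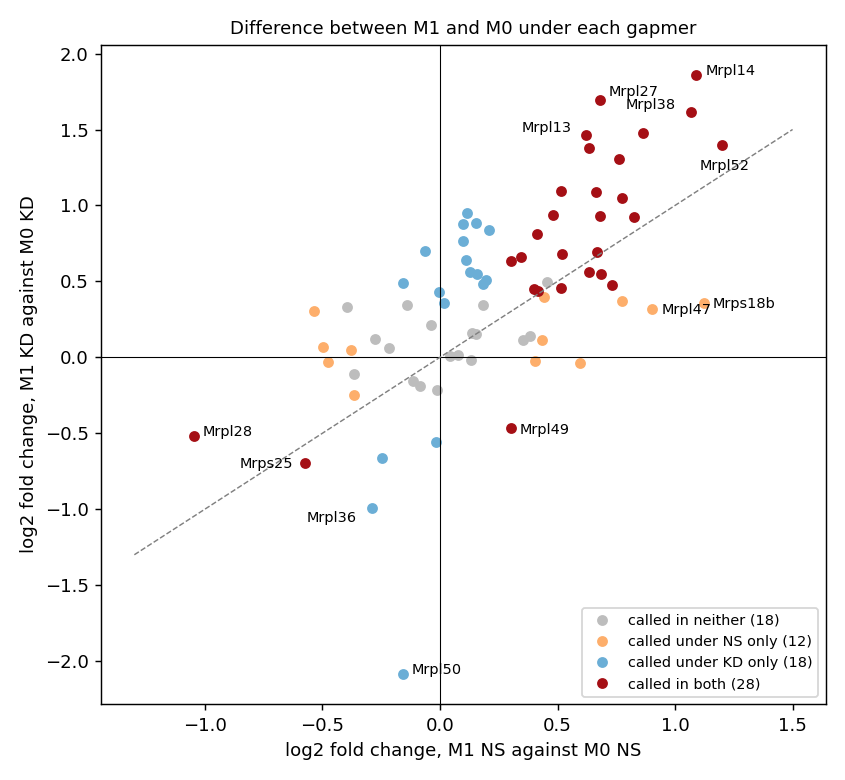
Each point is 1 of the 76 members, with its log2 fold change of M1 NS against M0 NS on the x axis and of M1 KD against M0 KD on the y axis; colour tells in which of them it was called, and the dashed line marks equal values. Of the 28 members called in both, 25 lie in the upper right, while Mrpl50 lies near 0 on the x axis and at -2.09 on the y axis. Values use TMM scaling, and library size as the only scaling lowers the members' medians to -0.19 and -0.06.

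In M0 cells the KD gapmer was compared with the NS gapmer. With edgeR over the 11 libraries no member passed the test, and neither did any other gene (0% of 15024). The lowest adjusted p among members was 0.224, and 12 members were at an unadjusted p under 0.05, 15.8% beside 13.0% of all genes. DESeq2 called 1 member, Mrpl23, lower beside 0.692% of all genes (0.779% higher), and limma-voom called 0 members and 0 genes in all. The values leaned to the low side: 53 members had a log2 fold change below 0, with a median of -0.14 beside 0.00 for all genes tested, and the range over members was -0.50 to 0.31. Without M0 NS replicate 4, which had the highest summed CPM of its group, the median was -0.06. With the trend in transcript length and GC content removed it was -0.082, and its distance from the median of all genes went from -0.141 to -0.057. For 26 members all libraries of 1 group lay beyond those of the other, 24 of them lower and 2 higher; of all genes this held for 35.1%, 17.9% lower and 17.2% higher.

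Mrpl23 was at 27.3, 27.3 and 28.5 CPM in M0 NS, while M0 KD had 20.5, 21.5 and 19.3 CPM (log2 change -0.44 with an SE of 0.11, edgeR's adjusted p = 0.224). The groups did not overlap. Its adjusted p was 0.0267 with DESeq2 and 0.0263 with edgeR on the 6 M0 libraries alone. That smaller fit also called Mrpl27 (35.4, 39.6 and 34.1 against 27.8, 28.2 and 26.7 CPM) and Mrpl14 lower, with log2 fold changes of -0.39 and -0.45. It called 3.98% of 13683 genes higher and 4.08% lower, so 3 of 76 members lower is near that background. Mrpl57 at -0.50, Mrps12 at -0.49 and Mrps24 at -0.46 had the lowest values and passed in none of these fits. The highest were Mrps30 and Mrpl1, both at 0.31. Other marked values of these libraries moved as well. The 8 neutrophil markers ran from 1227 to 2182 CPM in M0 NS when summed but from 658 to 705 CPM in M0 KD, all 8 with a log2 fold change below 0. The 14 cell cycle genes summed to 577 to 755 and 867 to 1089 CPM, and the 13 mitochondrially encoded transcripts to 9259 to 9932 and 11034 to 12102 CPM. None of these list genes passed edgeR's test over the 11 libraries, and their values in the other fits are not given here. At an unadjusted p under 0.05 in that test were all 8 neutrophil markers and 10 of the 14 cell cycle genes. Of the 11 mitochondrially encoded transcripts tested 1 was, beside 13.0% of all genes. The part of these lists in the members' values was not tested.

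**Figure D3:**
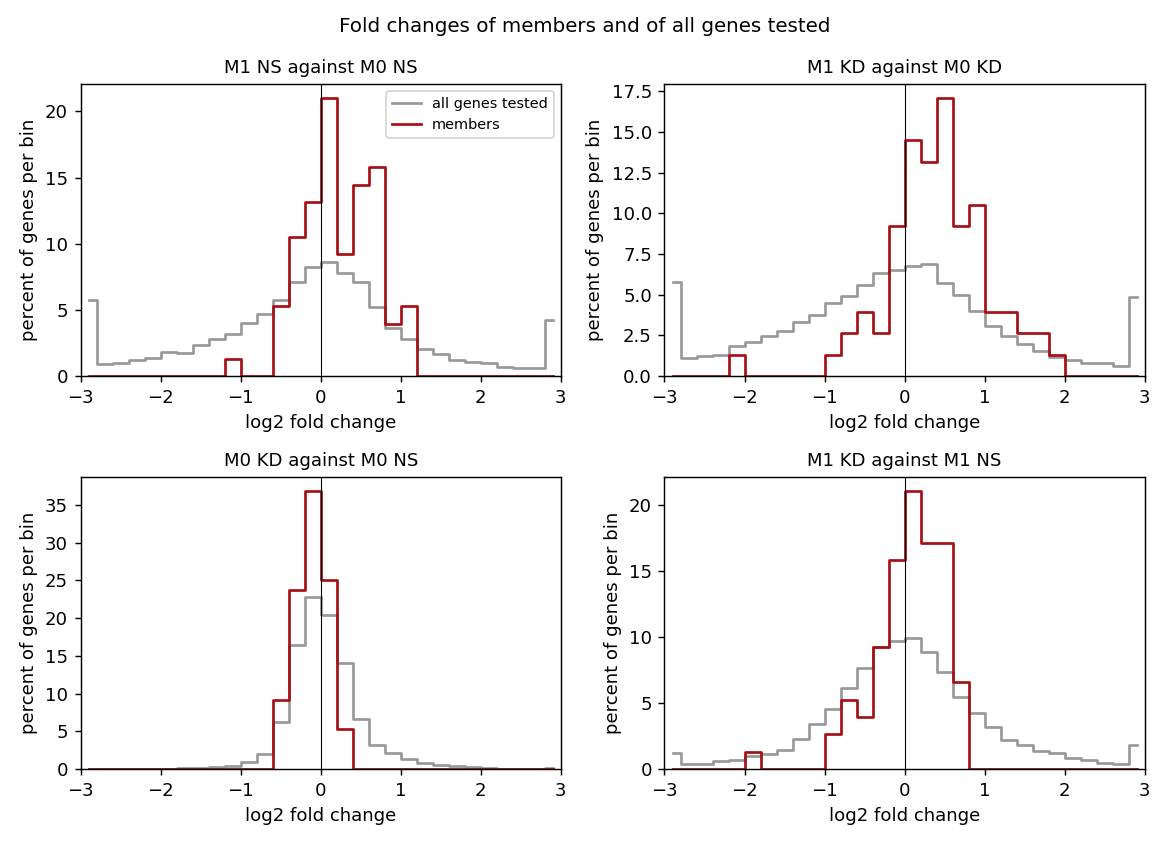
The 4 panels give the percent of genes per bin of log2 fold change for the 76 members and for the 15024 genes tested, with TMM scaling; values beyond the axis are gathered in the outermost bins. Members spread less than all genes in each panel, with medians of 0.19, 0.43, -0.14 and 0.11 in reading order. With library size as the only scaling the first 2 medians were -0.19 and -0.06.

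In M1 cells the KD gapmer was compared with the NS gapmer, with 2 libraries against 3. Of the 76 members 13 rose and 11 fell, 17.1% and 14.5%, where 17.6% of all genes tested were called higher and 19.2% lower (36.8% in all). Counts of members called were thus near the background in this comparison. The members' median log2 fold change was 0.11, beside 0.00 for all genes, and with upper-quartile factors, which moved all genes to 0.15, it was 0.26 with 23 members higher and 7 lower. Upper-quartile factors called 22.99% of all genes higher and 14.5% lower. The fit of the 5 M1 libraries alone called 6 members higher and 3 lower, with 11.5% of all genes higher and 11.4% lower. With the trend in transcript length and GC content removed, the members' median was 0.030 and its distance from that of all genes fell from 0.107 to 0.0041. Without M1 KD replicate 5 there were 6 higher, without M1 NS replicate 1 there were 8, and without M1 NS replicate 2 there were 21. Without M1 KD replicate 6 there were 5 lower. Of the large subunit members 10 of 49 rose and 5 fell, and of the small subunit members 2 of 26 rose and 6 fell; this difference was not tested. The ranges were apart for 37 members, 20 higher and 17 lower, and for 52.4% of all genes, 26.1% higher and 26.3% lower. Of the 27 members overlapped by exons on the other strand 7 rose and 3 fell, and of the other 49 members 6 rose and 8 fell.

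Mrpl50 fell most of all members. It has 2 exons at chr4:49512596-49521093 on the minus strand of GRCm38. It was at 15, 12.9 and 21.5 CPM in M1 NS and at 3.81 and 5.60 CPM in M1 KD, so that both KD libraries lay far below the lowest NS library (log2 change -1.82 with an SE of 0.23, edgeR's adjusted p = 1.45e-04). In M0 cells its values with the KD gapmer, 18.1 to 20.8 CPM, overlapped those with NS, 17.6 to 19.0 CPM. Mrpl36, a small large subunit protein with a bacterial homolog, fell from 13.8, 14.2 and 13.1 CPM to 6.45 and 8.45 CPM (log2 change -0.88 with an SE of 0.16, edgeR's adjusted p = 0.00126). Mrpl49 fell from 22.6, 21.7 and 24.5 CPM to 12.9 and 14.6 CPM (log2 change -0.74 with an SE of 0.13, edgeR's adjusted p = 9.28e-04). The calls of these 3 genes held in every alternative tried, and in each the groups did not overlap.

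Among small subunit members, Mrps12, which sits at the decoding centre, fell from 17.8, 21.7 and 16.6 CPM to 11.3 and 11.3 CPM (log2 change -0.73 with an SE of 0.18, edgeR's adjusted p = 0.00766). Mrps28 fell by 0.92, Mrps14 by 0.66 and Mrps18b by 0.52 on the log2 scale, as did the large subunit member Mrpl57 by 0.74. With the 5 M1 libraries alone none of these 5 passed. Calls of Mrps14, Mrpl57 and Mrps18b also ended without M1 KD replicate 6, that of Mrps28 without replicate 5 or M1 NS replicate 2. Outside the rule for named genes, Mrps5 (-0.44), Mrps2 (-0.39) and Mrpl15 (-0.37) were the other members called lower, named after their values were seen; their calls ended in 11, 6 and 9 alternatives.

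Mrps30 had the largest rise, from 8.88, 8.91 and 11.3 CPM to 14.9 and 17.7 CPM (log2 change 0.75 with an SE of 0.18, edgeR's adjusted p = 0.00674). Mrpl13, the homolog of a bacterial protein known for its early role in assembly, rose from 36.2, 35.0 and 41.5 CPM to 62.3 and 59.9 CPM (log2 change 0.70 with an SE of 0.12, edgeR's adjusted p = 0.00111). Mrpl27 went from 58.2, 69.6 and 47.1 CPM to 95.9 and 82.6 CPM, a log2 fold change of 0.61 that passed the test (adjusted p = 0.00866 with edgeR) but not without M1 KD replicate 5 or with the 5 M1 libraries alone. Mrpl42 rose by 0.67, Mrpl10 by 0.60, Mrpl45 by 0.59, Mrpl43 by 0.58, Mrpl48 by 0.51 and Mrps36 by 0.43. The call of Mrps36 ended in 7 alternatives, among them leaving out M1 NS replicate 1 or either M1 KD library. Calls of Mrps30 and Mrpl43 ended without M1 KD replicate 6, and those of Mrpl42 and Mrpl48 without replicate 5. The calls of Mrpl10, Mrpl13 and Mrpl45 held in every alternative tried. Mrpl42 and Mrps15 (0.43, a call that ended in 6 alternatives, among them without M1 NS replicate 1 or M1 KD replicate 5) rose with the KD gapmer after falling from M0 to M1 with the NS gapmer; both comparisons share the M1 NS libraries. Of the marker lists, 2 of 8 neutrophil genes fell and 0 were called higher, though 3 had a log2 fold change above 0, up to 2.43. Summed, these genes had 235 to 307 CPM in M1 NS and 197 to 206 in M1 KD. A single gene reached 186 CPM in M1 KD, so the sum mostly describes that gene there. Of 14 cell cycle genes 6 rose and none fell (308 to 481 and 445 to 483 CPM), and of 8 M1 markers 2 rose and 4 fell (12643 to 14236 and 16298 to 19363 CPM). Their part in the members' values was not tested.

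**Figure D4:**
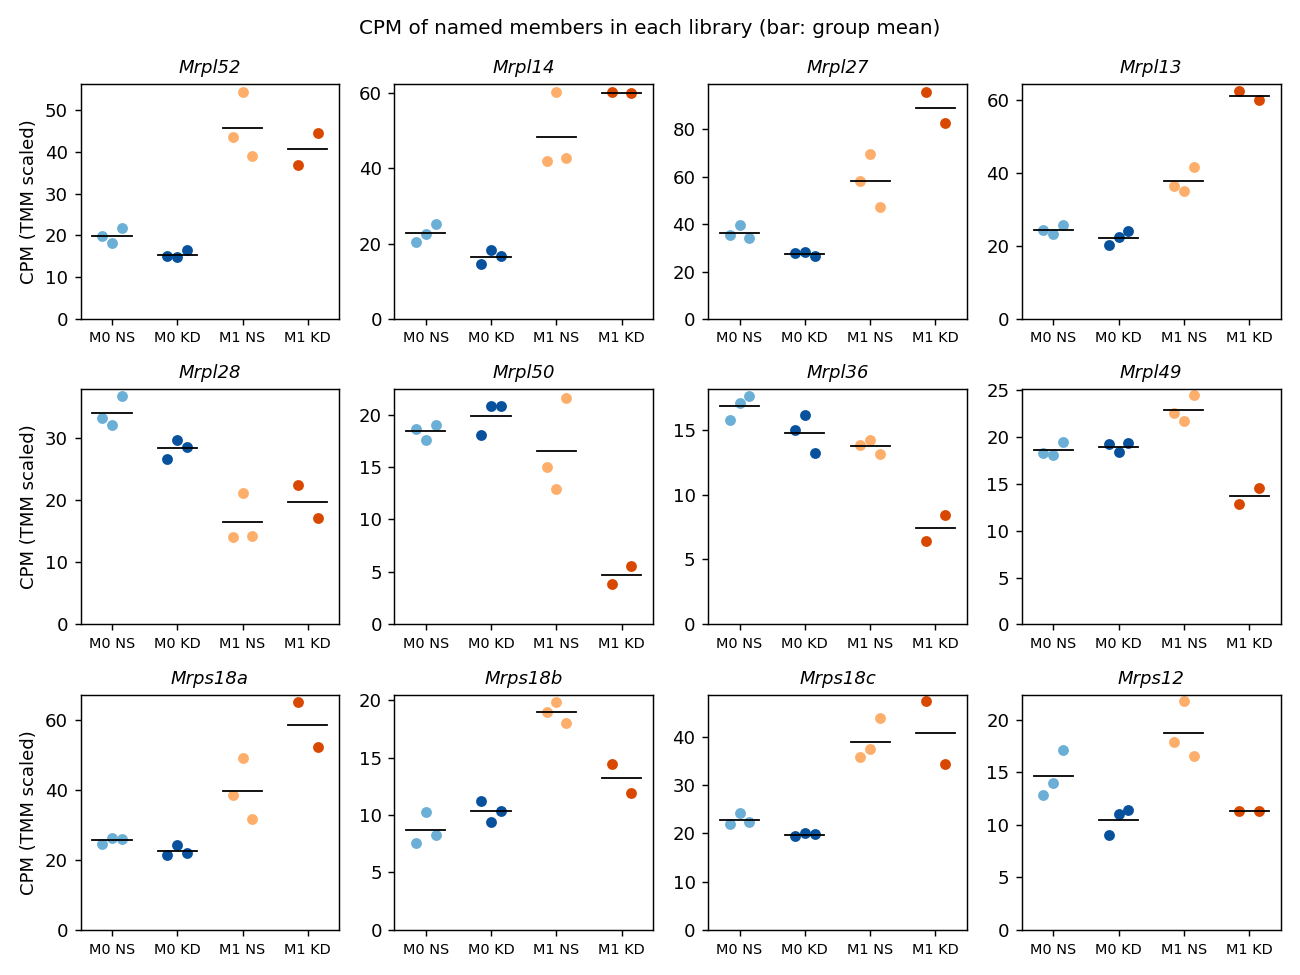
Each panel shows 1 member, with the CPM (TMM scaled) of each library as a point, a bar at the group mean and the y axis starting at 0; M1 KD has 2 libraries and the other groups 3. Mrpl50, Mrpl36 and Mrpl49 have their lowest 2 libraries in M1 KD, and Mrpl27 and Mrpl13 their highest 2 there.

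Whether the gapmer acted differently in M1 and M0 cells was tested as the difference between both KD effects. Of the 76 members 12 had a difference above 0 and 5 below 0 that passed edgeR's test, 15.8% and 6.58%, where 13.1% of all genes were above and 14.2% below (27.3% in all). The median difference was 0.26 on the log2 scale for members and -0.02 for all genes tested, and the distance between both was 0.27 with each of the 4 scalings. With the trend in transcript length and GC content removed from each library, the members' median was 0.13 and that distance 0.08. Of the 27 members overlapped by exons on the other strand 6 were called above 0 and 4 below. Of the other 49 members 6 were above and 1 below, and this was not tested. For Mrpl50 the difference was -1.93 (SE 0.30, adjusted p = 8.88e-04 with edgeR), for Mrpl49 -0.77, for Mrps18b -0.77, for Mrpl36 -0.70 and for Mrpl47 -0.59. Mrpl27 had the largest difference above 0, at 1.01 (SE 0.21, adjusted p = 0.00450 with edgeR), with a log2 fold change of -0.40 in M0 and 0.61 in M1. Mrpl10, Mrpl13 and Mrpl42 followed, each at 0.84. The calls of Mrpl10, Mrpl13, Mrpl27, Mrpl49 and Mrpl50 held in every alternative tried, whereas those of Mrpl14 (0.77), Mrpl36, Mrps18b and Mrpl47 ended in 8, 8, 6 and 13 alternatives.

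The 3 members of the S18 family, which are related to bacterial protein S18, were not called alike with the KD gapmer in M1, where Mrps18a was called higher, Mrps18b lower and Mrps18c not called. A difference between the genes was not tested. Only Mrps18c is classed as the bacterial counterpart, and the other two count among the members specific to mitochondria. Mrps18a was at 24.6, 26.4 and 25.9 CPM in M0 NS, M0 KD libraries had 21.5, 24.3 and 21.9, and M1 libraries had 38.5, 49.3 and 31.7 in M1 NS and 65.2 and 52.4 in M1 KD. It rose from M0 to M1 under both gapmers (0.63 and 1.38 on the log2 scale) and with the KD gapmer in M1 (0.56, adjusted p = 0.0217 with edgeR), the latter a call that ended in 4 alternatives, among them without M1 NS replicate 1 or M1 KD replicate 5. Mrps18b was at 7.59, 10.2 and 8.30 CPM in M0 NS, the M0 KD libraries had 11.2, 9.38 and 10.3, and M1 libraries had 19.0, 19.9 and 18 in M1 NS and 14.5 and 12 in M1 KD. It rose from M0 to M1 under NS (log2 change 1.12 with an SE of 0.15, edgeR's adjusted p = 4.22e-05) and fell with the KD gapmer in M1 (-0.52, adjusted p = 0.0278 with edgeR), a call that ended in 6 alternatives, among them without M1 NS replicate 1 or 2 or M1 KD replicate 6. Mrps18c, at 19.4 to 24.1 CPM in M0 and 34.3 to 47.4 CPM in M1, rose from M0 to M1 under NS by 0.78 and under KD by 1.05. Its log2 fold change with the KD gapmer in M1 was 0.07 (SE 0.15, adjusted p = 0.752 with edgeR), and it turned to -0.19 without M1 KD replicate 5.

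The stalk of the large subunit recruits translation factors. Its base protein Mrpl10 was at 27.0 ± 2.11 CPM in M0 NS, 23.0 ± 1.67 in M0 KD and 29.2 ± 2.65 in M1 NS (SD, n = 3 each), and at 44.5 ± 1.10 in M1 KD (SD, n = 2), where it rose over M1 NS. Mrpl12, the protein of the stalk itself, had 22.9 ± 4.39, 20.7 ± 1.92 and 32.8 ± 8.11 CPM in the same 3 groups (SD, n = 3 each) and 44.2 ± 5.82 in M1 KD (SD, n = 2). It passed from M0 to M1 under NS (0.52, adjusted p = 0.0330 with edgeR, a call that ended in 8 alternatives) and under KD (1.10), and did not pass with the KD gapmer in M1 (0.43, adjusted p = 0.122). Mrpl11, at 15.5 to 20.0 CPM in M0 and 19.3 to 23.5 in M1, passed only in M1 KD against M0 KD among the 5 comparisons, at a log2 fold change of 0.55. Mrps36 stood at 10.5 to 12.1 CPM in the 9 libraries outside M1 KD and at 14.9 and 15.4 CPM in M1 KD.

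The genes that share a start region with a member were read beside it, a comparison chosen after values were seen. Of the 32 members with such a neighbour, 31 had one that was tested, which makes 30 distinct pairs since Mrps11 and Mrpl46 neighbour each other. Between M0 NS and M1 NS both genes were called higher in 7 pairs and both lower in none, and 2 pairs went opposite ways. Only the member was called in 6 cases, only the neighbour in 10 and neither in 6. Of all genes tested 26.9% were called higher and 28.6% lower. Mrpl32 and Psma2, a proteasome subunit gene, were 1 of the 7, with log2 fold changes of 0.73 and 1.14. Among the 7, the calls of the members Mrpl13, Mrpl32, Mrpl44 and Mrps27 ended with library size as the only scaling. Exons of Mrpl13 and Mrpl14 overlap those of their neighbours Mtbp and Tmem63b, so reads there cannot be assigned with certainty. With the KD gapmer in M1, 4 pairs were called in opposite directions, the member lower in each. Only the member was called in 9 cases, only the neighbour in 8 and neither in 9, and 12 of the 31 members shared their neighbour's sign. Of all genes tested 17.6% were called higher and 19.2% lower. Whether 4 opposite pairs differ from other pairs of genes was not tested. The count of 4 rests on the setting, since the call of Mrps5 ended in 11 alternatives, RLE factors, DESeq2 and limma-voom among them, and that of Mrps18b in 6. Zfp189, a zinc finger gene, was at 2.83, 1.94 and 3.33 CPM in M1 NS and at 4.83 and 5.78 CPM in M1 KD (log2 fold change 0.96, adjusted p = 0.0155 with edgeR), while its neighbour Mrpl50 fell. Fau, which encodes a ubiquitin-like protein fused to a cytosolic ribosomal protein, rose by 0.71 beside Mrpl49, Ppp1r10 by 0.57 beside Mrps18b and Zfp661 by 1.0 beside Mrps5. The groups overlapped for Ppp1r10, at 56.4, 64.0 and 52.1 CPM in M1 NS and 110 and 60.2 in M1 KD. Its adjusted p was 0.0489 with edgeR. Zfp661 was low, at 0.728 to 1.09 CPM in M1 NS and at 2.41 and 1.35 CPM in M1 KD. The 1 pair called higher on both sides was Mrpl10 with Lrrc46, which had no count in M1 NS and at most 0.659 CPM in M1 KD.

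**Figure D5:**
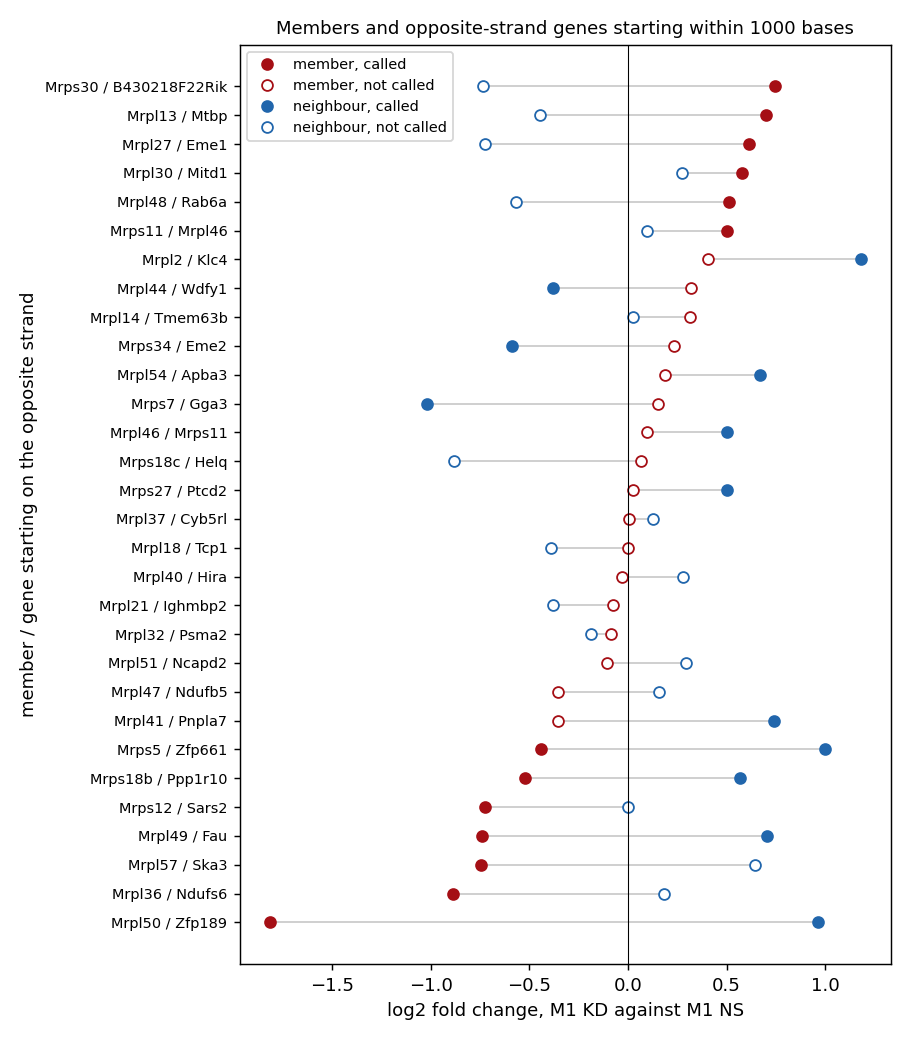
Each row is a member (red) and the gene starting within 1000 bases on the opposite strand (blue), placed by log2 fold change of M1 KD against M1 NS; filled points passed the test. Lrrc46, with no count in M1 NS, is left out with its partner Mrpl10. The lowest row, Mrpl50 at -1.82 and Zfp189 at 0.96, is the widest of the 4 rows in which both passed in opposite directions.

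Other genes of mitochondrial translation were read from lists beside the members, and genes with the smallest p are named first. Their counts stand beside a background of 26.9% higher and 28.6% lower from M0 NS to M1 NS, and 17.6% and 19.2% with the KD gapmer in M1, and nothing particular to a list is drawn from them. Of 6 further mitoribosome subunits named outside the Mrp scheme, 2 rose from M0 NS to M1 NS and none fell, namely Chchd1 (0.56) and Dap3 (0.43), which encodes a GTP-binding protein of the small subunit. With the KD gapmer in M1, Ptcd3 fell by 0.73 and the other 5 did not pass. Of 12 translation factors, Gfm1 (0.42), an elongation factor, and Tufm rose from M0 NS to M1 NS, and Guf1 fell by 1.44. With the KD gapmer in M1, 3 rose, with the smallest p for the initiation factor Mtif3 (0.81) and the recycling factor Mrrf (0.67), and Gfm1 fell by 0.35.

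Of 26 genes for mitoribosome assembly and rRNA modification, 7 rose and 8 fell from M0 NS to M1 NS, 26.9% and 30.8%, near the background. Rbfa, a maturation factor of the small subunit, fell by 1.76 and Nsun4, a methyltransferase, rose by 0.80. With the KD gapmer in M1, 5 rose and 5 fell, 19.2% each and again near it. Malsu1, the assembly factor that binds Mrpl14, rose from 10.1 ± 0.999 CPM (SD, n = 3) to 37.7 ± 2.33 CPM (SD, n = 2; log2 fold change 1.90, adjusted p = 4.80e-06 with edgeR), and Ddx28, a helicase, fell by 1.31. Of 20 genes that charge mitochondrial tRNAs, 3 rose and 8 fell from M0 NS to M1 NS, with the smallest p for Gatc (-1.19) and Vars2 (-0.87). With the KD gapmer in M1, 4 rose and 4 fell, among them Mars2 (-2.02). Of 11 mitochondrially encoded transcripts tested, 1 fell from M0 NS to M1 NS, mt-Nd1 (-0.73), and 2 fell with the KD gapmer in M1, mt-Nd1 (-1.31) and mt-Nd2 (-1.05).

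Of 18 tested regulators of mitochondrial gene expression and biogenesis, 5 rose and 3 fell from M0 NS to M1 NS, with the smallest p for the receptor gene Esrra (1.60) and Slirp (1.42), which encodes an RNA-binding partner of LRPPRC. With the KD gapmer in M1, 2 rose and 5 fell. Pprc1, a coactivator of the PGC-1 family, fell by 1.60 and Lrpprc by 0.75. Named after their values were seen, Gabpa, an ETS factor, went from 42.8 ± 7.79 CPM (SD, n = 3) to 23.6 ± 4.44 CPM (SD, n = 2), a log2 fold change of -0.86, and Nrf1 had a log2 fold change of -0.64, and both passed. In M0 KD against M0 NS no gene of these 6 lists passed edgeR's test over the 11 libraries.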

How the data were processed

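The mouse build GRCm38 and the tools featureCounts (Subread 1.5.2), STAR 2.5.2b and Trimmomatic 0.36 are named, without settings, in the submitters' processing notes. The table deposited by the authors holds raw counts per gene. A table of the authors' normalized values was not used. An entry with a blank name, 0.000219% of counts, was left out. Genes were filtered with filterByExpr (minimum count 10, minimum total 15) and tested with edgeR 4.0.16 in R 4.3.3: TMM scaling, 1 quasi-likelihood fit over the 11 libraries (glmQLFit robust, glmQLFTest), Benjamini-Hochberg adjustment over all genes tested, called below 0.05. CPM are TMM scaled; RPKM divides by the length of the principal transcript in GENCODE M21, a length chosen after values were seen; the authors' annotation is not known. Positions are from GENCODE M21. The script was tested on simulated data.

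Members were taken by name alone, but the choice of this family and of the gene lists was made with earlier results of these data known. The rule for named genes took the 8 members with the smallest p in each direction of each comparison, the S18 family, the stalk (Mrpl10, Mrpl11, Mrpl12), Mrps12, Mrps36, the 2 highest and 2 lowest by RPKM, and 2 genes of each other list. Alternatives were other scalings and filters, DESeq2 1.42.0, limma-voom (limma 3.58.1), the robust option off, fewer libraries, a replicate block, and, chosen after seeing the data, 9 libraries without that block and removal of a length and GC trend. A result for 1 named gene is not reported here.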

Additional observations from a re-analysis of the deposited data

Results flagged for a closer look

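For 17 of the 76 members, 22.4%, the effect of the KD gapmer differed between M1 and M0 cells by edgeR's test of the difference itself. The test was adjusted over all 15024 genes, of which 27.3% passed. Only 3 of the 12 calls above 0 held in every alternative tried, those of Mrpl10, Mrpl13 and Mrpl27. Below 0, 2 of 5 did, those of Mrpl49 and Mrpl50. Values are the log2 effect in M1 minus that in M0. Below 0 were Mrpl50 at -1.93, Mrpl49 at -0.769, Mrps18b at -0.765, Mrpl36 at -0.699 and Mrpl47 at -0.586. Above 0 were Mrpl27 at 1.01, Mrpl42 at 0.841, Mrpl13 at 0.839, Mrpl10 at 0.837, Mrpl2 at 0.78, Mrpl14 at 0.771, Mrpl43 at 0.764, Mrps18a at 0.748, Mrpl30 at 0.732, Mrps11 at 0.669, Mrps15 at 0.57 and Mrpl45 at 0.547. No group has the 4 libraries that a test for a single outlying library needs.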

How the results depend on the processing

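An adjusted p below 0.01 left 3 members lower in M1 NS against M0 NS, 8 higher and 5 lower in M1 KD against M1 NS, and 3 above and 2 below 0 for the difference of the KD effect. Upper-quartile factors gave 12 lower with a median of 0.066 in M1 NS against M0 NS, 23 higher and 7 lower (0.26) in M1 KD against M1 NS, and 20 and 2 (0.39) for the difference. Library size as the only scaling gave 9 higher and 25 lower (-0.19) in M1 NS against M0 NS, 15 and 22 (-0.055) in M1 KD against M0 KD, and 7 above 0 (0.15) for the difference. Without a filter, 7 were lower in M1 KD against M1 NS and 2 below 0 for the difference. DESeq2 called 1 lower in M0. Fits of only the groups compared called 3 lower in M0, 6 higher and 3 lower in M1 KD against M1 NS, and gave a median of 0.52 in M1 KD against M0 KD, where RLE factors gave 0.51. Removing the length and GC trend gave a median difference of 0.13, and union exon lengths a median of 8.43 RPKM. The causes were not tested.

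Leaving out 1 library at a time gave 23 to 34 higher and 3 to 8 lower in M1 NS against M0 NS, a median of -0.18 to -0.056 in M0, 6 to 21 higher and 5 to 9 lower in M1 KD against M1 NS, 4 to 7 lower with a median of 0.33 to 0.49 in M1 KD against M0 KD, and 5 to 19 above and 2 to 5 below 0 for the difference. The extremes came without M1 NS replicate 1 (3 lower in M1 NS against M0 NS, 5 above 0 for the difference), M1 NS replicate 2 (21 and 19), M1 KD replicate 5 (6 higher, median 0.33, 5 above 0), M1 KD replicate 6 (5 lower in M1 KD against M1 NS, 4 lower in M1 KD against M0 KD), M0 NS replicate 1 and M0 KD replicate 1 (2 below 0 each, 5 above 0 for the second) and M0 NS replicate 4 (median -0.056). Where M1 KD keeps 1 library, that library is assumed to vary like the other groups.

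Whether library numbers pair the samples could not be decided. Same-numbered libraries deviated from their group means with correlations of -0.136 to 0.188, and differently numbered ones with -0.257 to 0.264. Deviations within a small group are tied to each other, so these values neither show nor exclude a pairing. With the replicate block over the 9 libraries numbered 1, 2 and 4, 31 members were higher and 5 lower in M1 NS against M0 NS and 0 in M0; without the block those libraries gave 33, 6 and 0. M1 KD shares no number with another group.

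Of the values of named members, 1868 kept direction and side of the threshold under the alternatives, 145 lost a call, 28 gained one and 38 changed sign. Not all that changed sign were near 0. With library size as the only scaling, Mrps36 did so in M1 KD against M0 KD, where TMM scaling had called it higher. Under that scaling Mrps18b in the same comparison and Mrps12 in M1 NS against M0 NS also turned, from 0.36 and 0.35 with TMM. In M1 NS against M0 NS, Mrps36 was at 0.032 with RLE and 0.032 with DESeq2, 0.029 with the replicate block, 0.027 with the 9 libraries, 0.00372 in the smaller fit and -0.047 to 0.031 with 1 library left out. Mrpl10 was at -0.00745 with upper-quartile factors, and with library size only Mrpl10 was at -0.28, Mrpl11 at -0.23 and Mrps12 at -0.041. In M0, Mrps36 was at -0.011 with RLE and DESeq2, at -0.015 without a filter, at -0.050 to 0.047 with 1 library left out and at -0.066 with the trend removed, where Mrpl32 was at -0.083, Mrpl48 at -0.052 and Mrpl12 at 0.042. Leaving out 1 library moved Mrpl12 between -0.25 and 0.017 and Mrpl53 between -0.49 and 0.11 in M0, the upper ends without M0 NS replicate 4. In M1 KD against M1 NS, Mrps18c was at -0.027 with the trend removed and between -0.19 (without M1 KD replicate 5) and 0.28 with 1 library left out. In M1 KD against M0 KD with library size only, Mrps18b was at -0.13, Mrps12 at -0.38, Mrps36 at -0.058 and Mrps35 at -0.44. There Mrps12 was at -0.24 with the trend removed, and Mrps35 between -0.047 (without M1 KD replicate 6) and 0.13 with 1 library left out. For the difference, Mrpl53 was at -0.055 with library size only, -0.011 with limma-voom, -0.30 with the trend removed and between -0.29 and 0.31 with 1 library left out, and Mrpl52 was at -0.15 with the trend removed.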
